A study of Mus musculus with 9 samples.

Results

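The genes described here are 10 plasma membrane amino acid transporters of activated lymphocytes, namely Slc7a5, Slc3a2, Slc7a1, Slc7a6, Slc7a7, Slc7a11, Slc1a4, Slc1a5, Slc38a1 and Slc38a2. They were chosen by name, with earlier results of these data known, and all 10 have a row among the 17596 genes of the expression table. The libraries were made from splenic B cells of Mb1Cre mice, which carry Cre under the B lineage Mb1 (Cd79a) gene, and of Mct1f/fMb1Cre mice, which carry the same Cre and 2 copies of a floxed Mct1 (Slc16a1) allele. The mice were on a C57BL/6J background and 6 to 8 weeks old by the study's methods. Unstimulated cells were taken on day 0 (2 Mb1Cre and 2 Mct1f/fMb1Cre libraries), and cells cultured with LPS at 10 μg/mL plus IL-4 at 50 ng/mL were taken on day 3 (2 Mb1Cre and 3 Mct1f/fMb1Cre libraries). The cultures held added GlutaMax, nonessential amino acids and β-mercaptoethanol, so the day 3 cells differ from the day 0 cells in medium as well as in stimulus. No group carried the floxed allele without Cre. The labels do not say that the libraries of a group came from separate mice, so p-values measure only the spread between these libraries.

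Resting B cells are small and make little protein, whereas stimulation with LPS and IL-4 drives growth, division and class switching, which need amino acids from outside the cell. Slc3a2 (CD98 heavy chain, 4F2hc) is a glycoprotein that carries several Slc7 light chains to the cell surface, and the light chain sets the substrate. The Slc1a4 and Slc1a5 carriers exchange small neutral amino acids and, for Slc1a5, glutamine, while Slc38a1 and Slc38a2 take up neutral amino acids together with sodium.

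Values are FPKM as deposited, fragment counts scaled by transcript length and by the fragments mapped in the library. Differences were fitted with limma on log2(FPKM + 1), and a call needed a Benjamini-Hochberg adjusted p under 0.05 over 10823 genes and a log2 difference past 0.5 either way. The targeted gene, Slc16a1, stood at 22.6 and 23.0 FPKM in the Mb1Cre day 3 libraries and at 9.50 to 10.8 FPKM in the 3 Mct1f/fMb1Cre day 3 libraries (log2 difference -1.11 ± 0.071, SE, limma adjusted p = 9.07e-06). On day 0 it was at 3.80 and 4.33 FPKM in Mb1Cre and at 3.71 and 4.06 FPKM in Mct1f/fMb1Cre. Its mRNA level thus did not separate the genotypes before stimulation. A level per gene cannot show whether the floxed stretch, which is a part of the gene, was deleted. The 8 B cell markers were all expressed in every group, with a sum of 4415 to 4858 FPKM on day 0 and 2218 to 2309 FPKM on day 3. Markers of other cells were high on day 0: the sum of 26 myeloid, erythroid, T and NK cell and platelet markers was 1476 to 2408 FPKM on day 0 and 82.6 to 121 FPKM on day 3, and 25 of the 26 were higher on day 0. The macrophage and neutrophil gene Lyz2 alone was at 614 to 809 FPKM on day 0 and at 10.0 to 20.4 FPKM on day 3, and its part in the differences between days was not tested. The Y-linked gene Ddx3y was at 14.7 to 16.9 FPKM in all 5 day 3 libraries and at 31.1 FPKM in the first Mct1f/fMb1Cre day 0 library, but at 0.02 to 0.24 FPKM in the other 3 day 0 libraries. Sex and day therefore cannot be told apart in Mb1Cre. In bulk RNA, fewer cells of a type and less RNA per cell cannot be told apart.

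Slc7a5 and Slc1a4 showed the largest differences between days among the members, and Slc7a1 and Slc3a2 also rose in both genotypes, whereas Slc7a7 fell in both and Slc1a5 and Slc38a1 were called in neither. In Mb1Cre cells 4 members rose and 2 fell of the 9 tested, where 24.8% of all tested genes rose and 33% fell. In Mct1f/fMb1Cre cells 5 rose and 1 fell, where 23.4% of all tested genes rose and 33.2% fell. The median log2 difference of the tested members was 0.48 in Mb1Cre and 0.57 in Mct1f/fMb1Cre, beside -0.12 and -0.14 over all tested genes. Slc7a11 was not tested because its mean was under 1 FPKM, and Slc1a4 passed that limit only through its day 3 libraries.

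**Figure D1:**
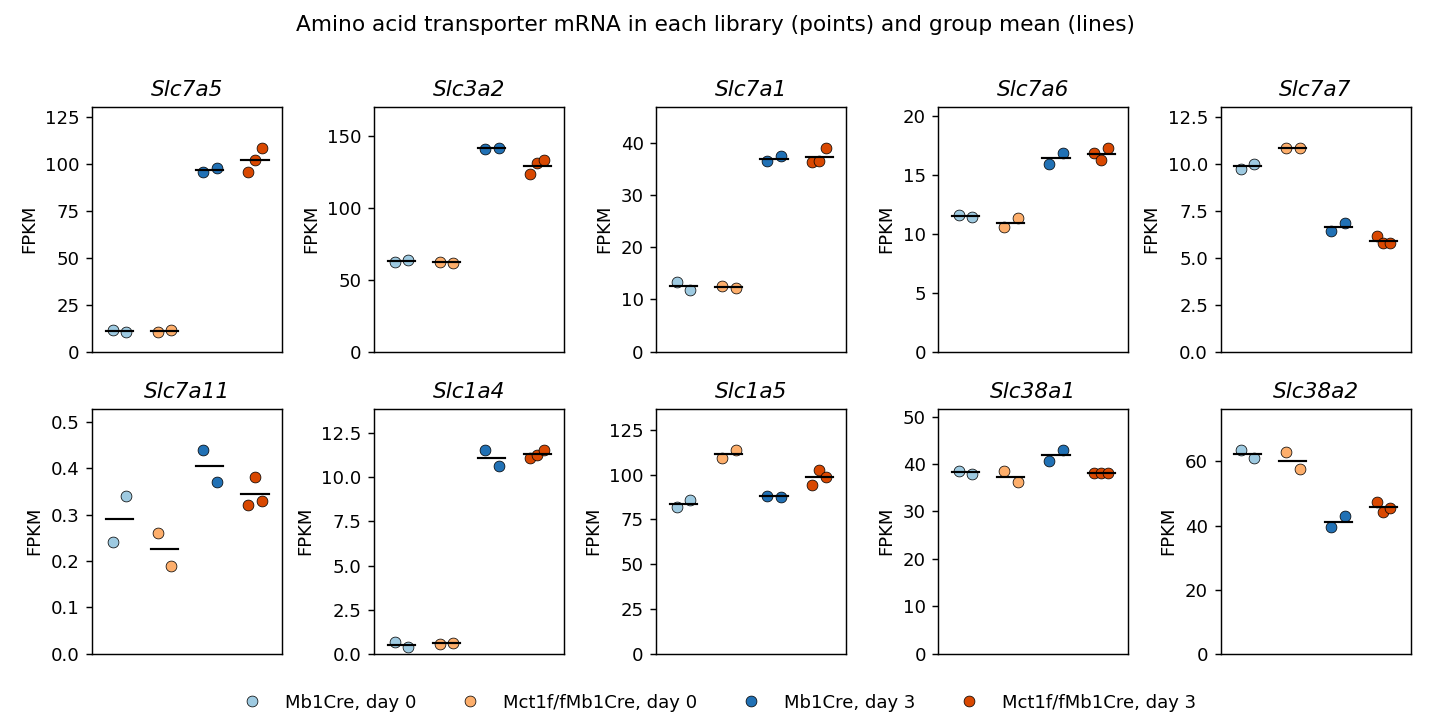
FPKM of the 10 transporters (vertical axes, linear, from 0, each gene on its own scale) in the 9 libraries, with points for libraries and lines for group means. Slc7a5 sat between 10.4 and 11.9 FPKM on day 0 and between 95.6 and 109 FPKM on day 3, while the Slc1a5 and Slc38a1 levels of the days lay close together.

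Slc7a5 (LAT1, gene ID 20539, chr8:121881150-121907694, minus strand, GRCm38) encodes the light chain that imports leucine and other large neutral amino acids. Its level was 11.86 and 10.41 FPKM in the Mb1Cre day 0 libraries, 10.51 and 11.44 FPKM in Mct1f/fMb1Cre on day 0, 95.61 and 97.63 FPKM in Mb1Cre on day 3, and 96.01, 101.95 and 108.74 FPKM in Mct1f/fMb1Cre on day 3. Every day 3 library lay far above every day 0 library, and the genotypes overlapped on both days. The mean rose 8.68-fold in Mb1Cre (log2 difference 3.01 ± 0.072, SE, limma adjusted p = 2.16e-11) and 9.32-fold in Mct1f/fMb1Cre (3.11 ± 0.065, limma adjusted p = 9.42e-12).

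Slc3a2 (gene ID 17254, chr19:8706882-8723369, minus strand, GRCm38), the heavy chain, was at 62.36 and 63.38 FPKM in Mb1Cre and at 62.31 and 61.85 FPKM in Mct1f/fMb1Cre on day 0. On day 3 it was at 140.81 and 141.68 FPKM in Mb1Cre and at 123.25, 131.33 and 133.11 FPKM in Mct1f/fMb1Cre. The rise was smaller than that of Slc7a5, 2.25-fold in Mb1Cre (1.16 ± 0.045, limma adjusted p = 8.54e-10) and 2.08-fold in Mct1f/fMb1Cre (1.05 ± 0.041, limma adjusted p = 8.37e-10).

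Of the other light chains that pair with Slc3a2, Slc7a6 rose in Mct1f/fMb1Cre and Slc7a7 fell in both genotypes. Slc7a6 (y+LAT2, gene ID 330836, chr8:106168857-106198706, plus strand), which exchanges cationic for neutral amino acids, was at 10.6 to 11.6 FPKM over the 4 day 0 libraries and at 16.0 to 17.4 FPKM over the 5 day 3 libraries. Its log2 difference was 0.57 ± 0.052 in Mct1f/fMb1Cre, which was called (limma adjusted p = 1.01e-06), and 0.48 ± 0.057 in Mb1Cre, which was under the limit of 0.5 (limma adjusted p = 1.15e-05). The 2 values lie on either side of the limit and do not show a difference between genotypes (interaction 0.10, limma adjusted p = 0.468). The Mb1Cre value was called at 0.51 without the first Mb1Cre day 3 library, at 0.67 with median-of-ratios scaling and at 0.62 with quantile normalization. It stayed uncalled in 17 of 22 alternatives, and its lowest value was 0.29.

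Slc7a7 (y+LAT1, gene ID 20540, chr14:54369442-54417780, minus strand), the other light chain of system y+L, which is prominent in epithelia and macrophages, went the opposite way. It was at 9.74 and 10.01 FPKM in Mb1Cre and 10.84 and 10.88 FPKM in Mct1f/fMb1Cre on day 0. On day 3 the values were 6.45 and 6.84 FPKM in Mb1Cre and 6.16, 5.78 and 5.80 FPKM in Mct1f/fMb1Cre, all under the day 0 values. The log2 difference was -0.51 ± 0.061 in Mb1Cre (limma adjusted p = 1.16e-05) and -0.78 ± 0.056 in Mct1f/fMb1Cre (limma adjusted p = 1.25e-07). The Mb1Cre value lay just past the limit and was not called without the second Mb1Cre day 0 library (-0.49) or without the first Mb1Cre day 3 library (-0.47), nor with median-of-ratios scaling or quantile normalization (both -0.32). The 10 myeloid markers summed to 1312 to 2179 FPKM on day 0 and to 73.2 to 111 FPKM on day 3, and their part in the Slc7a7 difference was not tested. Exons of Slc7a7 share 232 of 3315 bases with Oxa1l on the opposite strand, and whether the reads were counted by strand is not given in the sources used here.

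Slc7a11 (xCT, gene ID 26570, chr3:49892526-50443614, minus strand), the cystine and glutamate exchanger, stayed near the bottom of the scale. Its values were 0.24 and 0.34 FPKM in Mb1Cre and 0.26 and 0.19 FPKM in Mct1f/fMb1Cre on day 0, against 0.44 and 0.37 FPKM in Mb1Cre and 0.32, 0.38 and 0.33 FPKM in Mct1f/fMb1Cre on day 3. In the fit with no filter on low values its log2 difference was 0.12 in Mb1Cre (limma adjusted p = 0.0697) and 0.13 in Mct1f/fMb1Cre (limma adjusted p = 0.0389), both under the limit.

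On this scale, which is per transcript length, the 6 light chains Slc7a5, Slc7a6, Slc7a7, Slc7a8, Slc7a10 and Slc7a11 summed to 36.7 to 38.1 FPKM over the day 0 libraries and to 119 to 133 FPKM over the day 3 libraries. Their sum was 0.592 ± 0.019 of the Slc3a2 level in Mb1Cre on day 0 (SD, n = 2) and 0.854 ± 0.014 on day 3 (SD, n = 2). In Mct1f/fMb1Cre the ratio was 0.604 ± 0.017 on day 0 (SD, n = 2) and 0.975 ± 0.022 on day 3 (SD, n = 3). The day 3 ratios were 0.844 and 0.863 in Mb1Cre and 0.954 to 0.997 in Mct1f/fMb1Cre. They did not overlap. The single gene levels of 47.1% of tested genes did not overlap between genotypes on day 3, and no such share was counted for ratios. The difference in the ratio was not tested. Slc7a5 made up 28.4% to 31.4% of the light chain sum in the day 0 libraries and 79.8% to 81.9% in the day 3 libraries. Slc7a7 made up 25.8% to 29.4% on day 0 and 4.37% to 5.59% on day 3.

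**Figure D2:**
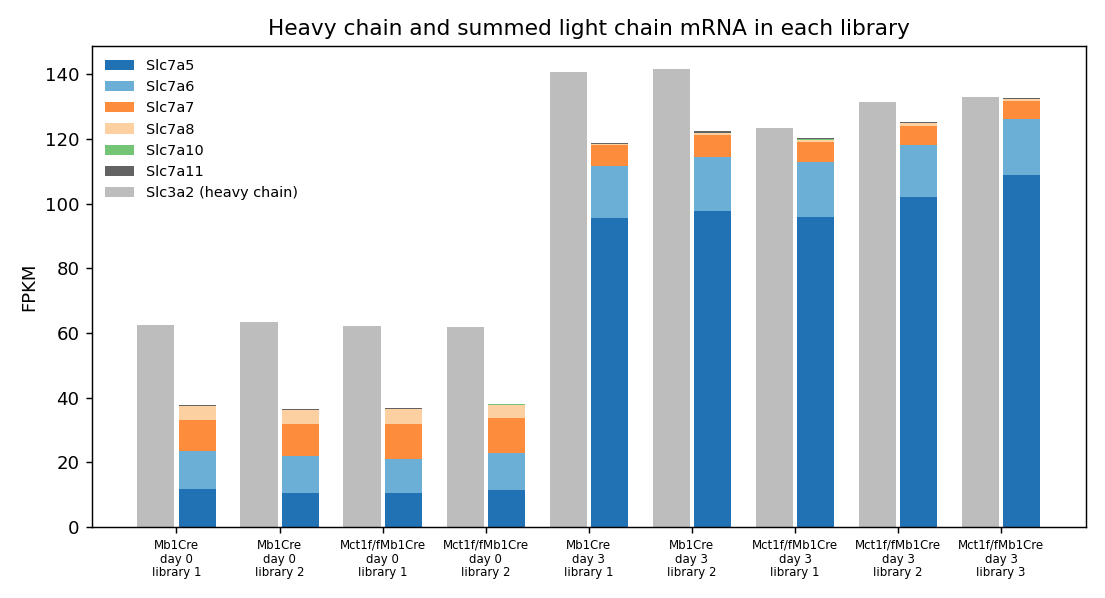
FPKM of the Slc3a2 heavy chain (grey bars) and of its 6 light chains (stacked bars) in each of the 9 libraries. On day 0 the 4 light chain stacks reach 36.7 to 38.1 FPKM, and on day 3 the 5 stacks reach 119 to 133 FPKM, with Slc7a5 as the tallest segment of every day 3 stack.

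Slc7a1 (CAT1, gene ID 11987, chr5:148327410-148399904, minus strand), which takes up arginine and lysine without a heavy chain, rose in both genotypes. It was at 13.30 and 11.90 FPKM in Mb1Cre and 12.59 and 12.16 FPKM in Mct1f/fMb1Cre on day 0, and at 36.41 and 37.46 FPKM in Mb1Cre and 36.27, 36.53 and 39.05 FPKM in Mct1f/fMb1Cre on day 3. The days did not overlap and the genotypes did on both days. The rise was 2.93-fold in Mb1Cre (1.48 ± 0.061, limma adjusted p = 1.24e-09) and 3.01-fold in Mct1f/fMb1Cre (1.52 ± 0.056, limma adjusted p = 4.5e-10), and the interaction was 0.04 with an interval of -0.15 to 0.22.

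Of the ASC carriers, Slc1a4 rose from near 0 and Slc1a5 was not called. Slc1a4 (ASCT1, gene ID 55963, chr11:20302180-20332713, minus strand), an exchanger of alanine, serine and cysteine, was at 0.65 and 0.38 FPKM in Mb1Cre and 0.56 and 0.63 FPKM in Mct1f/fMb1Cre on day 0. On day 3 it was at 11.52 and 10.66 FPKM in Mb1Cre and at 11.07, 11.25 and 11.57 FPKM in Mct1f/fMb1Cre. Mean FPKM rose 21.5-fold and 19.0-fold, while the fitted log2 differences were 3.00 ± 0.092 (limma adjusted p = 1.26e-10) and 2.95 ± 0.084 (limma adjusted p = 6.49e-11), because adding 1 FPKM understates the change of a gene this low on day 0.

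Slc1a5 (ASCT2, gene ID 20514, chr7:16781340-16798274, plus strand), the glutamine exchanger, was already abundant in resting cells. Its levels on day 0 were 81.91 and 85.75 FPKM in Mb1Cre and 109.13 and 113.98 FPKM in Mct1f/fMb1Cre, and on day 3 they were 88.13 and 87.71 FPKM in Mb1Cre and 94.38, 102.49 and 98.77 FPKM in Mct1f/fMb1Cre. The genotypes did not overlap on either day, as was also so for Slc3a2 and Slc7a7. On day 3 the same was so for 47.1% of all tested genes, and on day 0 this share was not counted. The difference between days was 0.07 ± 0.049 in Mb1Cre (limma adjusted p = 0.211) and -0.18 ± 0.045 in Mct1f/fMb1Cre (limma adjusted p = 0.00315). Neither passed the limit, and the signs turned with the scaling, to -0.13 in Mb1Cre with each library scaled to the same FPKM total and to 0.04 in Mct1f/fMb1Cre with median-of-ratios scaling.

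Of the system A carriers, Slc38a2 fell in Mb1Cre and Slc38a1 was not called in either genotype. Slc38a2 (SNAT2, gene ID 67760, chr15:96687392-96699730, minus strand), which is known for its induction when amino acids are scarce, was at 63.70 and 61.12 FPKM in Mb1Cre and 62.98 and 57.53 FPKM in Mct1f/fMb1Cre on day 0. All 5 day 3 libraries were lower, at 39.49 and 42.98 FPKM in Mb1Cre and 47.23, 44.34 and 45.47 FPKM in Mct1f/fMb1Cre. The log2 difference was -0.59 ± 0.059 in Mb1Cre, which was called (limma adjusted p = 2.58e-06), and -0.39 ± 0.054 in Mct1f/fMb1Cre, which was under the limit (limma adjusted p = 3.6e-05) but was called at -0.57 with each library scaled to the same FPKM total. The interaction of 0.20 was not called (limma adjusted p = 0.156). Slc38a1 (SNAT1, gene ID 105727, chr15:96571418-96642913, minus strand) was at 38.57 and 37.97 FPKM in Mb1Cre and 38.45 and 36.24 FPKM in Mct1f/fMb1Cre on day 0. It was at 40.75 and 43.05 FPKM in Mb1Cre and 38.07, 38.03 and 38.20 FPKM in Mct1f/fMb1Cre on day 3. Its log2 differences of 0.13 and 0.03 were both under the limit and turned negative with each library scaled to the same FPKM total (-0.07 and -0.15).

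**Figure D3:**
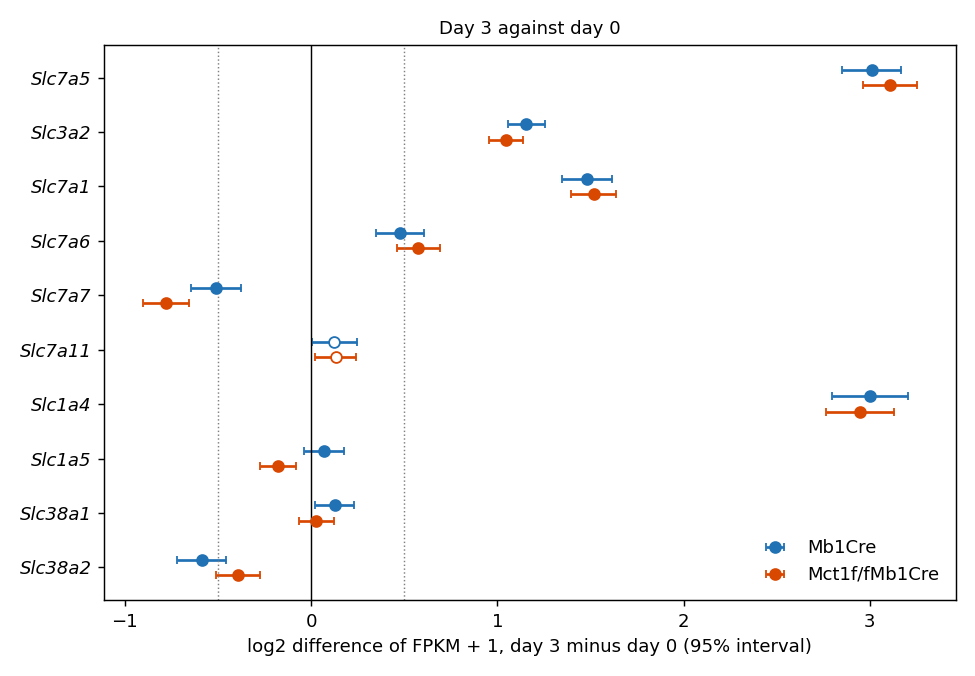
Differences between days of the 10 transporters on the log2(FPKM + 1) scale (horizontal axis) with 95% intervals, for Mb1Cre (blue) and Mct1f/fMb1Cre (orange). Dotted lines mark the limit of 0.5, open points mark Slc7a11 from the fit with no filter, and Slc7a5 and Slc1a4 lie near 3 in both genotypes.

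The order of the levels changed between days. On day 0 the mean levels in Mb1Cre ran from Slc1a5 (83.8 FPKM) through Slc3a2 (62.9), Slc38a2 (62.4), Slc38a1 (38.3), Slc7a1 (12.6), Slc7a6 (11.5), Slc7a5 (11.1), Slc7a7 (9.88) and Slc1a4 (0.515) to Slc7a11 (0.290). Slc3a2 and Slc38a2 overlapped between libraries, as did Slc7a6 and Slc7a5. On day 3 the order in Mb1Cre was Slc3a2 (141 FPKM), Slc7a5 (96.6), Slc1a5 (87.9), Slc38a1 (41.9), Slc38a2 (41.2), Slc7a1 (36.9), Slc7a6 (16.4), Slc1a4 (11.1), Slc7a7 (6.65) and Slc7a11 (0.405), and of these neighbours Slc38a1 and Slc38a2 overlapped. In Mct1f/fMb1Cre on day 3, Slc7a5 (102 FPKM) overlapped Slc1a5 (98.5 FPKM), and Slc38a2 (45.7 FPKM) stood above Slc38a1 (38.1 FPKM) with no overlap. On day 0 in Mct1f/fMb1Cre, Slc7a5 (10.97 FPKM) overlapped both Slc7a6 (10.98 FPKM) and Slc7a7 (10.86 FPKM). By mean level Slc7a5 was second in both genotypes on day 3.

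Sex and scaling were looked at for the differences between days. Without the second Mct1f/fMb1Cre day 0 library, which lacks Ddx3y, the log2 difference in Mct1f/fMb1Cre was 3.16 for Slc7a5, 1.04 for Slc3a2, 1.49 for Slc7a1, 0.62 for Slc7a6, -0.78 for Slc7a7 and 2.98 for Slc1a4. It was -0.46 for Slc38a2, -0.15 for Slc1a5 and -0.01 for Slc38a1, the last with its sign turned. The day 0 arm is then 1 library, which is assumed to vary like the other groups, and the part of sex in the differences between days was not tested. In Mb1Cre, median-of-ratios scaling, which moved the median of all tested genes from -0.12 to 0.07, called 5 members higher and none lower. Of the 10795 genes tested with that scaling, 3433 were called higher and 2731 lower. There Slc7a6 was at 0.67, Slc7a7 at -0.32 and Slc38a2 at -0.38. Of all called genes in Mb1Cre, 42.9% were higher as deposited, 31.8% with each library scaled to the same FPKM total, 55.7% with median-of-ratios scaling and 51.3% with quantile normalization.

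RefSeq promoter windows (GRCm38.p6, 250 bases before to 50 after a start) were matched for 7 of the 10 members, and Slc7a5, Slc1a5 and Slc38a1 were not matched. The stretches below are shown because they hold the letters TGATGNAA, the core of the amino acid response element, which ATF4 and C/EBP family proteins are known to bind. Capitals mark those letters on either strand, and each stretch runs 5′ to 3′ on the strand of its gene.
Slc7a11, chr3:50443633-50443719: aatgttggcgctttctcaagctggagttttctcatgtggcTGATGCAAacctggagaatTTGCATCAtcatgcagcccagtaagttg
Slc1a4, chr11:20332710-20332757: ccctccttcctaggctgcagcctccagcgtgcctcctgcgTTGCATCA
Slc7a7, chr14:54418058-54418125: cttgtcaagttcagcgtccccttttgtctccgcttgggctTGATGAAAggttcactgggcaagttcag
Slc7a7, chr14:54417938-54417985: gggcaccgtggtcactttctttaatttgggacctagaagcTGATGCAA

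These letters were chosen after the windows had been read, so the match is a description and not a site. TGATGNAA occurred in 3.97% of 32851 windows and in 4 of the 13 member windows, which belong to 3 of the 7 members. TGATGCAA, which is contained in it, occurred in 0.895% of windows and in 4 of the 13 member windows, of the same 3 members. Matching windows of Slc7a7 overlap and share a match. The 3 genes did not move alike on activation, since Slc1a4 rose, Slc7a7 fell and Slc7a11 stayed under 0.5 FPKM in every library. The E-box letters CACGTG occurred in 7.15% of windows and in none of the 7 members. TGACNNNGC, letters of the antioxidant response element, occurred in 12.4% of windows and in 4 of the 13 member windows, which belong to Slc7a1, Slc7a6 and Slc38a2. ATTGCATCA, which overlaps the reverse of TGATGCAA, was in no member's window. All 5 strings were searched on both strands.

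Other genes of amino acid transport and use were counted in lists, which are given as counts with no test of a list. Of 21 other plasma membrane amino acid transporters in the table, 8 were tested, and in Mb1Cre 3 of these rose and 4 fell between days, where 24.8% of all tested genes rose and 33% fell. Slc7a3 (CAT3), a cationic carrier related to Slc7a1, rose from 0.07 and 0.12 FPKM to 21.55 and 22.76 FPKM (log2 difference 4.40 ± 0.090, limma adjusted p = 9e-12). Slc6a9 (a glycine carrier) and Slc1a2 (a glutamate carrier) rose by 3.41 and 1.89 on the log2 scale. All 3 genes that rose were under 1 FPKM on day 0 and passed the filter of 1 FPKM only through their day 3 libraries. With a mean of at least 5 FPKM required, 5 genes of this list were tested in Mb1Cre, and 2 rose and 2 fell. Of all 8430 genes tested with that filter, 2297 rose and 2517 fell. Slc7a8, Slc43a2 and Slc16a10, which like Slc7a5 carry large neutral or aromatic amino acids, fell by 1.84, 1.15 and 1.07 on the log2 scale. Slc7a8 (LAT2) was at 4.12 to 4.62 FPKM over the day 0 libraries and 0.41 to 0.81 FPKM over the day 3 libraries, opposite to Slc7a5. It passed the filter only through its day 0 libraries.

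Of the 9 tested lysosomal amino acid transporters, 1 rose and 6 fell between days in Mb1Cre, with a list median of -1.02, where 24.8% of all tested genes rose and 33% fell. The gene that rose was Slc15a3, a histidine and peptide carrier (2.25 ± 0.083, limma adjusted p = 5.13e-10), while its relative Slc15a4 fell by 1.84 on the log2 scale. Slc38a9, an arginine sensor that reports to mTORC1, and Slc36a1, a proton-coupled exporter, fell by 1.54 and 1.52 on the log2 scale. Slc38a9 was at 9.68 to 10.6 FPKM on day 0 and at 2.69 to 2.83 FPKM on day 3.

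Among 28 tested enzymes that make or use the imported amino acids, 20 rose and 3 fell in Mb1Cre and 21 rose and 3 fell in Mct1f/fMb1Cre. Of all tested genes 24.8% rose and 33% fell in Mb1Cre, and 23.4% rose and 33.2% fell in Mct1f/fMb1Cre. The list medians of 1.76 and 1.62 lay above the medians of all tested genes. Of the 28 genes, 5 had a mean under 1 FPKM on day 0 and passed the filter only through their day 3 libraries. Asns (asparagine synthetase) rose from 1.89 and 4.12 FPKM to 100.09 and 106.42 FPKM in Mb1Cre (4.76 ± 0.214, limma adjusted p = 2.6e-09). Cth (cystathionine gamma-lyase, which makes cysteine) rose by 4.76 and Chac1 (which degrades glutathione) by 3.79 on the log2 scale. Glul (glutamine synthetase), Bckdha (a subunit of the branched-chain keto acid dehydrogenase) and Gclc (glutamate-cysteine ligase) fell by 1.58, 1.58 and 0.56 on the log2 scale. Gclc was not called with median-of-ratios scaling (-0.36), quantile normalization (-0.48) or a pseudocount of 5 (-0.46).

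All 14 regulators of transporter genes were tested, and 5 rose and 4 fell in each genotype, which is near the shares of all tested genes (24.8% and 33% in Mb1Cre). Atf5 (4.12), Trib3 (3.61) and Atf3 (3.48), stress response genes known as targets of ATF4, had the largest positive log2 differences in Mb1Cre. Trib3 was under 1 FPKM on day 0 and passed the filter only through its day 3 libraries. Its value ran from 2.10 with a pseudocount of 5 to 4.68 with one of 0.1. Bach1, a repressor of antioxidant genes, and Nfe2l2 (NRF2), an activator of Slc7a11, fell by 1.54 and 1.32, and Eif2ak3 (PERK) fell by 1.10. Nfe2l2 was at 33.8 to 37.2 FPKM over the day 0 libraries and at 12.9 to 13.4 FPKM over the day 3 libraries.

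**Figure D4:**
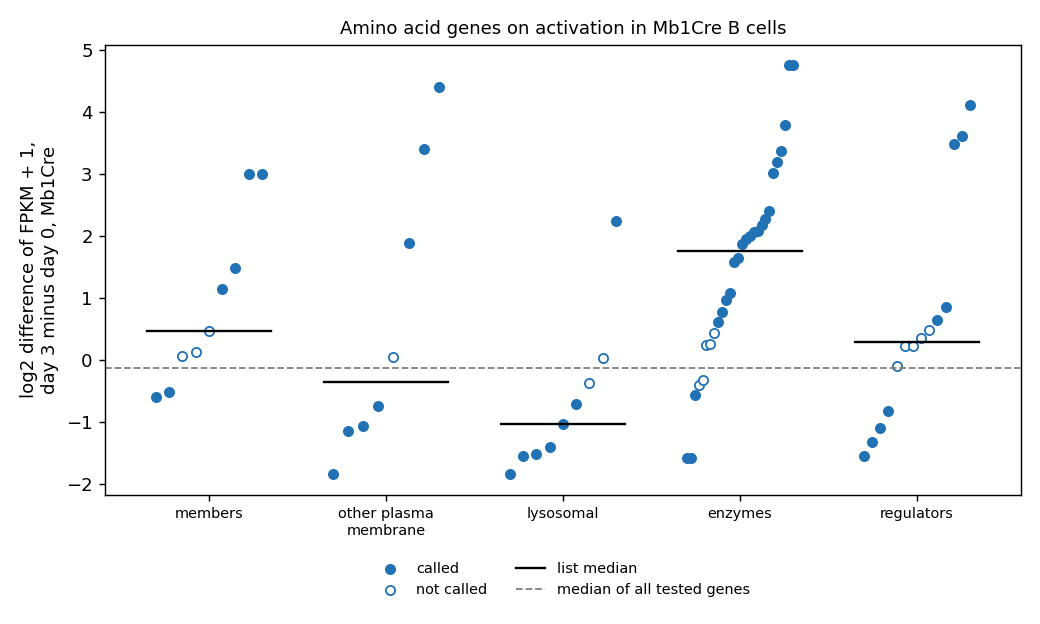
Differences between days in Mb1Cre on the log2(FPKM + 1) scale (vertical axis) for every tested gene of the members and of 4 other lists, with filled points for called genes and open points for others. The enzyme list has a median of 1.76 and the lysosomal list one of -1.02, beside -0.12 for all tested genes (dashed line).

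The genes whose pattern over the 9 libraries lay nearest to Slc7a5 were found by the root mean square difference of log2(FPKM + 1) after centring each gene on its own mean. Among the nearest were Bcat1 (0.061), Mvd (0.090), Hmgcs1 (0.091) and Fdft1 (0.093), of 10814 tested genes outside the members. Bcat1 encodes a branched-chain aminotransferase that uses leucine, a substrate of Slc7a5, and Mvd, Hmgcs1 and Fdft1 encode enzymes of sterol synthesis. Bcat1 was at 0.13 to 0.32 FPKM on day 0 and at 8.44 to 9.34 FPKM on day 3, and its likeness to Slc7a5 thus depends on the added 1 FPKM. The 9 libraries fall into 2 days, so this likeness rests mostly on the difference between days.

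The question between genotypes was whether loss of Mct1 goes with another transporter level. By limma, 0 of the 9 tested members were called on day 3, where 2.42% of all tested genes were called. By adjusted p alone 1 member passed, where 15.2% of tested genes passed, and 5 had an unadjusted p under 0.05, where 29% of tested genes did. The same 5 were those whose genotypes did not overlap, as was so for 47.1% of tested genes. The 95% intervals of all 9 differences lay between -0.27 and 0.26 on the log2 scale. Slc7a5 differed by 0.08 with an interval of -0.07 to 0.22. Slc1a5 was higher in Mct1f/fMb1Cre by 0.16 ± 0.045 (limma adjusted p = 0.0341), under the limit. Slc38a2 was at 0.15 (adjusted p = 0.0978), Slc3a2 at -0.13 (adjusted p = 0.0621), Slc38a1 at -0.13 (adjusted p = 0.062) and Slc7a7 at -0.15 (adjusted p = 0.108) by the same limma fit.

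On day 0, 0 of 9 members were called, where 0.277% of all tested genes were called. Slc1a5 was the 1 member with an unadjusted p under 0.05, where 11.7% of tested genes had one. It also passed the adjusted p, where 45 of 10823 tested genes passed (log2 difference 0.41 ± 0.049, interval 0.30 to 0.52, limma adjusted p = 0.00496). It was 1.33-fold higher in Mct1f/fMb1Cre, and both libraries of that genotype lay above both Mb1Cre libraries. The genotypes of Slc3a2, Slc7a6 and Slc7a7 did not overlap on day 0 either. How many of all tested genes separate in this way on day 0 was not counted. The sums of the 5 erythroid markers also stood apart on day 0, at 84.9 and 98.3 FPKM in Mb1Cre and 114 and 155 FPKM in Mct1f/fMb1Cre. The sums of the 10 myeloid markers overlapped, at 1312 and 1522 FPKM in Mb1Cre and 1434 and 2179 FPKM in Mct1f/fMb1Cre. T and NK cell sums overlapped too, at 58.8 to 71.0 FPKM in Mb1Cre and 61.5 to 63.6 FPKM in Mct1f/fMb1Cre. So did platelet sums, at 6.21 to 6.85 FPKM and 3.98 to 10.3 FPKM. Ddx3y was present in 1 of the Mct1f/fMb1Cre day 0 libraries and in neither Mb1Cre one. The part of these cells and of sex in the Slc1a5 difference was not tested.

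The interaction of genotype and day called 0 of 9 members by limma, where 3.23% of all tested genes were called. By adjusted p alone 1 member passed, where 9.42% of tested genes passed, and 3 members had an unadjusted p under 0.05, where 25.4% of tested genes had one. Slc1a5 was at -0.25 ± 0.066 (limma adjusted p = 0.0436), Slc7a7 at -0.27 ± 0.083 (limma adjusted p = 0.0679) and Slc38a2 at 0.20 ± 0.080 (limma adjusted p = 0.156). Slc7a5 was at 0.10 with an interval of -0.12 to 0.31.

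**Figure D5:**
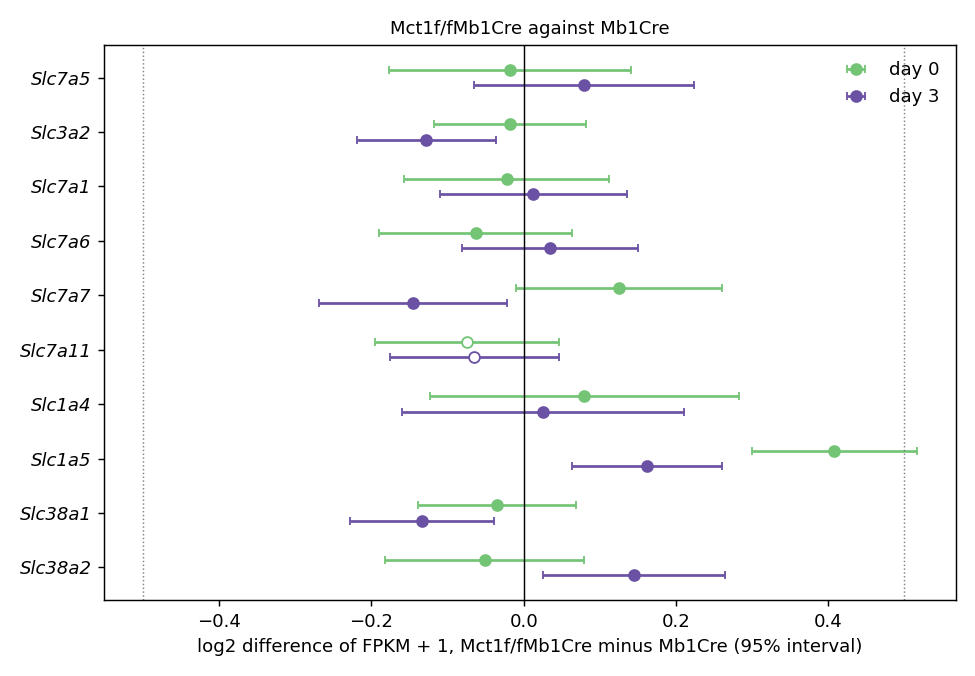
Differences of Mct1f/fMb1Cre minus Mb1Cre on the log2(FPKM + 1) scale (horizontal axis) with 95% intervals, on day 0 (green) and day 3 (purple). The dotted lines mark the limit of 0.5, open points mark Slc7a11 from the fit with no filter, and Slc1a5 on day 0 lies farthest from 0 at 0.41.

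Of the 59 tested genes of the 4 other lists, 2 (3.39%) were called between genotypes on day 3, near the 2.42% of all tested genes. Cth was at 30.20 and 31.42 FPKM in Mb1Cre and at 15.48 to 17.25 FPKM in Mct1f/fMb1Cre, a log2 difference of -0.86 ± 0.068 (limma adjusted p = 3e-05). Ass1 (argininosuccinate synthetase, which regenerates arginine from citrulline) went the other way, with 30.99 and 34.99 FPKM in Mb1Cre and 54.81 to 59.12 FPKM in Mct1f/fMb1Cre (0.77 ± 0.078, limma adjusted p = 0.000139). Slc7a3 was at 15.35 to 17.95 FPKM in Mct1f/fMb1Cre on day 3, below both Mb1Cre libraries, at a log2 difference of -0.37 ± 0.082 (limma adjusted p = 0.013), under the limit. The interaction called these 3 genes, 5.08% of the 59 beside 3.23% of all tested genes, at -0.80 for Cth (limma adjusted p = 0.00159), 0.63 for Ass1 (limma adjusted p = 0.00957) and -0.57 for Slc7a3 (limma adjusted p = 0.0167). Cth and Slc7a3 were under 1 FPKM on day 0, so these values depend on the added 1 FPKM: with a pseudocount of 0.1 Cth was at -0.59 and not called (limma adjusted p = 0.0967, where the alternatives ran from 0.000252 to 0.0967), and Slc7a3 was at -1.28. Slc7a3 was not called without the first (-0.61) or the second (-0.54) Mb1Cre day 3 library, and Ass1 was not called without the second Mct1f/fMb1Cre day 0 library (0.49).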

How the data were processed

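Total RNA of splenic B cells was sequenced by BGI, and per the labels Bowtie2 and the build GRCm38 (mm10) were used. The authors deposited FPKM values per gene, with 2 decimals and no counts, so read depth is unknown and no counting interval is given. Other settings of the alignment, the annotation and strand handling are not given in the sources used here. FPKM totals were 477079 to 563586 per library, and replicates correlated at 0.993 or above.

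All 17596 genes were read. limma 3.58.1 in R 4.3.3 was fitted on log2(FPKM + 1) with 4 group means and a mean-variance trend, over the 10823 genes whose mean across all 9 libraries reached 1 FPKM. Calls needed a Benjamini-Hochberg adjusted p under 0.05 and a log2 difference above 0.5 in size, and 5 contrasts were tested. The fit was tested on simulated data. Intervals are 95% limits. Every member is named, as are from each other list the 3 largest called changes in each direction between days in Mb1Cre and any gene called between genotypes on day 3 or in the interaction. For Slc7a5 the 5 nearest genes were found and 4 are named, and values of some genes that this rule would name are not reported here. The members and lists were chosen with earlier results of these data known. Gene positions come from GENCODE (GRCm38) and promoter windows from RefSeq (GRCm38.p6). Alternatives changed the pseudocount, filter, scaling, limit, samples and block.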

Additional observations from a re-analysis of the deposited data

Results flagged for a closer look

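The interaction term of limma had an adjusted p under 0.05 for 1 of the 9 tested members and for 5 of the 59 tested genes of the other lists (8.47%), where 9.42% of all tested genes had one. Slc1a5 was at -0.25, Ass1 at 0.63, Cth at -0.80, Slc7a3 at -0.57, Cebpg at -0.43 and Trp53 at 0.20 on the log2 scale. Cebpg and Trp53, from the list of regulators, are named after their values were seen. Cth was at -0.59 and not called with a pseudocount of 0.1, and Cth and Slc7a3 were under 1 FPKM on day 0. For Slc1a5 the genotypes stood apart more on day 0 than on day 3. The groups hold 2 or 3 libraries, so no single library was tested as standing apart.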

How the results depend on the processing

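Read depth is unknown, groups hold 2 or 3 libraries, and scaling moves the median of all genes between days. The members called between days numbered 4 to 8 over the alternatives in each genotype. Of all 10823 tested genes, 3191 were called in Mb1Cre with a log2 limit of 1 and 9152 with no limit. In Mct1f/fMb1Cre these counts were 2994 and 9258. Without a log2 limit 1 member was called on day 3, 1 on day 0 and 1 in the interaction, and under every other alternative none was. Of all 10823 tested genes, 1650, 45 and 1020 were called in these 3 comparisons without a limit. The signs of uncalled members turned between days as follows. With each library scaled to the same FPKM total, Slc1a5 (-0.132) and Slc38a1 (-0.0709) in Mb1Cre and Slc38a1 (-0.145) in Mct1f/fMb1Cre turned. With quantile normalization Slc1a5 in Mb1Cre (-0.0749) and Slc38a1 in Mct1f/fMb1Cre (-0.0134) turned, and with median-of-ratios scaling Slc1a5 in Mct1f/fMb1Cre (0.0400). Leaving out single libraries put Slc38a1 in Mct1f/fMb1Cre between -0.0129 and 0.0703. The cause was not tested.

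The labels give same-numbered libraries a number and do not state whether they are paired. Their deviations correlated at -0.12 to 0.06. Outside the Mct1f/fMb1Cre day 3 group the deviations within a group mirror each other, so these values cannot show whether libraries were paired. A replicate block, in which the third Mct1f/fMb1Cre day 3 library has a level of its own and drops out, called 6 members between days in each genotype and 0 in the other 3 comparisons, as without it. It called 6261 of all genes between days in Mb1Cre, and a crossed pairing added after seeing the data called 6257, against 6258 without a block.

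The Slc7a7 fall in Mb1Cre was not called with a pseudocount of 5 (-0.35), median-of-ratios scaling or quantile normalization (both -0.32), and the Slc7a6 rise in Mct1f/fMb1Cre was not called with that pseudocount (0.45) or with the same FPKM total (0.41). The Slc7a6 value in Mb1Cre was called with a pseudocount of 0.1 (0.51), median-of-ratios scaling (0.67) or quantile normalization (0.62). The limma adjusted p of Slc1a5 ran over the alternatives from 0.0181 to 0.156 on day 3, from 0.00184 to 0.122 on day 0 and from 0.0171 to 0.132 for the interaction. The Slc7a3 interaction was not called with a pseudocount of 5 (-0.35), with no filter on low values (-0.57) or with quantile normalization (-0.43) and was -1.28 with a pseudocount of 0.1, that of Ass1 was not called with no filter (0.63), and that of Cth was not called with a pseudocount of 0.1 (-0.59).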
